A study of Homo sapiens with 9 samples.

Results

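The mRNA levels of 7 genes of NAD metabolism were followed in A549 cells, a human epithelial line established from a lung adenocarcinoma, out of 51796 gene identifiers counted. The genes were CD38, NNMT, NAMPT, NMNAT1, NADSYN1, QPRT and PARP1, and all 7 passed the filter on low counts, among 18292 genes tested. CD38 was picked for its fall under MS023, so its values in the comparisons that use the MS023 libraries are given as a description with no test. The other 6 genes were chosen by their roles around it, with earlier results of these data known.

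NAD is a redox coenzyme that several enzymes also consume. Glycohydrolases such as CD38, ADP-ribosyltransferases such as PARP1 and the sirtuin deacylases cleave it and release nicotinamide. NAMPT and the NMNAT enzymes return nicotinamide to NAD, whereas NNMT methylates nicotinamide with S-adenosylmethionine, the methyl donor that protein arginine methyltransferases also use, and so takes it out of the cycle. QPRT and NADSYN1 act in the routes that build NAD from tryptophan and from nicotinic acid.

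The 3 groups of 3 libraries were cells given DMSO, the solvent, cells given GSK591, which inhibits PRMT5, the chief source of symmetric dimethylarginine on proteins, and cells given MS023, an inhibitor of type I enzymes such as PRMT1, which make the asymmetric form. Each inhibitor was given at 1 µM for 7 days. Plates for DMSO received 0.2 times 1e5 cells and those for the inhibitors 0.4 times 1e5, so seeding and treatment cannot be told apart in the comparisons with DMSO. The labels give triplicate RNA but not separate cultures, and p-values then measure only the spread between these libraries, which may be technical.

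Libraries held 31398075 to 51244525 counts. Levels are given as CPM (counts scaled to library size, after TMM scaling) and differences as fitted log2 changes ± standard error (SE), with edgeR's quasi-likelihood p-values adjusted by the Benjamini-Hochberg method over all 18292 genes. A gene was called at an adjusted p under 0.05. Mitochondrial rRNA reached 932.5 CPM in GSK591 library 3, 20.7 CPM in DMSO library 1 and 17.5 CPM in GSK591 library 1, against 0.410 to 13.1 CPM in the other libraries. Without DMSO library 1 and GSK591 library 3, 6 of 7 genes were called between GSK591 and DMSO and 4 of 6 between MS023 and DMSO, against 5 in each with all libraries. Of all 18565 genes tested without these 2 libraries, 5251 rose and 5313 fell under GSK591, and 4779 rose and 4435 fell under MS023. The 7 markers fixed for a lung epithelial line were all detected, led by AKR1B10 (mean 5505 CPM), KRT8 (3214 CPM) and KRT18 (1681 CPM). Their summed level ran from 12416 to 13015 CPM in DMSO, 14042 to 14156 CPM in GSK591 and 11580 to 12143 CPM in MS023. Single markers went both ways: 2 of 7 rose and 1 fell under GSK591, and 2 rose and 4 fell under MS023. Calls covered 62.6% and 51.0% of all tested genes. EPCAM went against the sum, at -1.07 ± 0.09 under GSK591 (edgeR adjusted p = 5.99e-08) and 0.64 ± 0.08 under MS023 (adjusted p = 6.77e-06). AKR1C1 rose under MS023 too (0.46 ± 0.03).

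Between GSK591 and DMSO, 5 of the 7 genes were called, 3 higher (CD38, NMNAT1, NADSYN1) and 2 lower (NNMT, PARP1), where 62.6% of all tested genes were called, 30.1% higher and 32.4% lower. Between MS023 and DMSO, 5 of the 6 genes other than CD38 were called, 3 higher (NMNAT1, QPRT, PARP1) and 2 lower (NNMT, NAMPT), beside 51.0% of all tested genes, 25.1% higher and 25.9% lower. Between MS023 and GSK591, 5 of these 6 were called, 2 higher (QPRT, PARP1) and 3 lower (NNMT, NAMPT, NADSYN1), beside 65.4% of all tested genes, 33.6% higher and 31.7% lower. Calls were common among all genes, and these counts are not read as particular to the chosen ones. Of the 6 genes other than CD38, NNMT was the one that changed by more than 1 on the log2 scale, in both comparisons that use the MS023 libraries. The comparisons with DMSO share the DMSO libraries, and each pair of comparisons shares 1 group, so their values are set side by side.

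**Figure D1:**
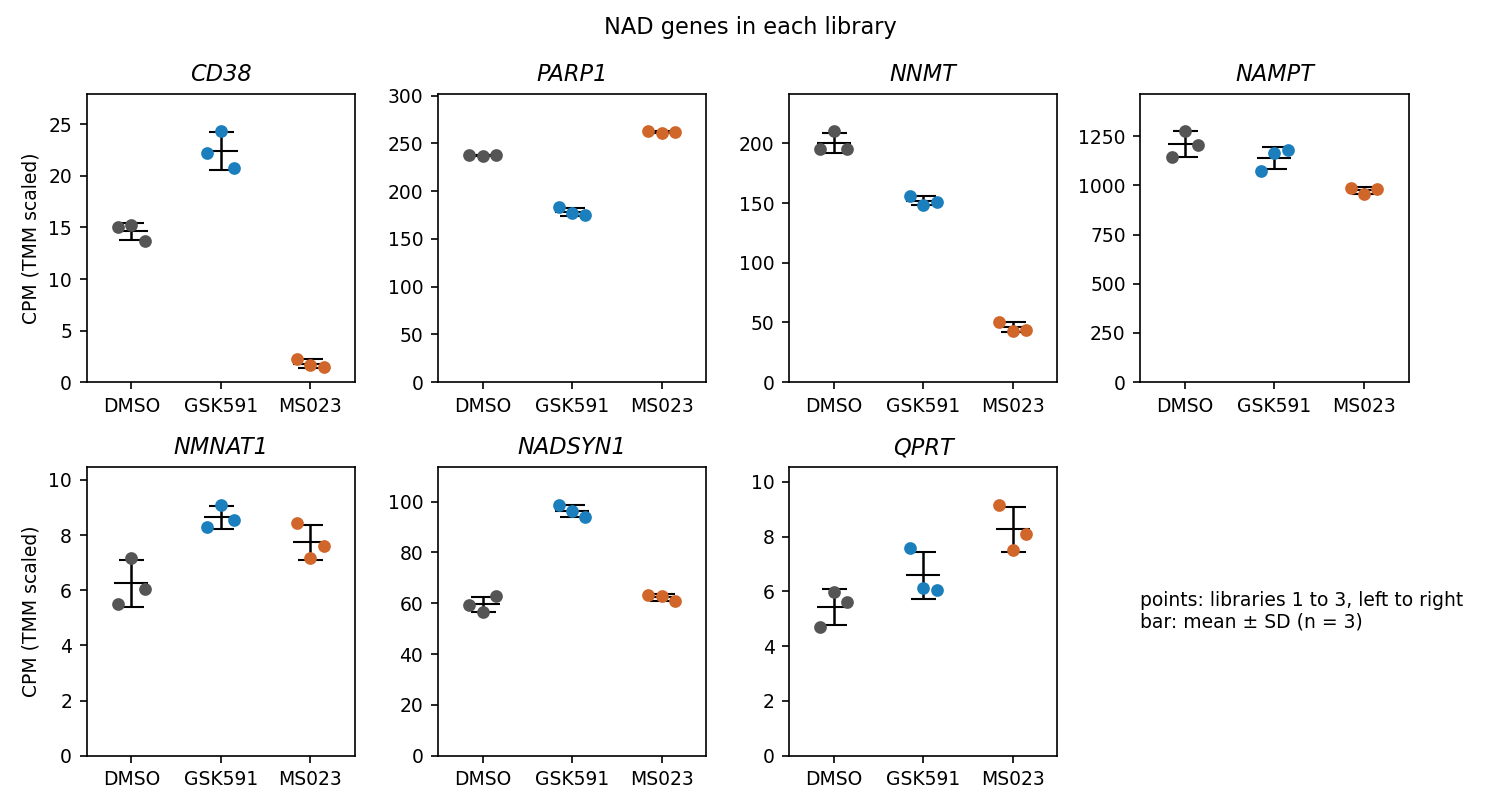
Level of each of the 7 NAD genes in CPM (TMM scaled, linear axis from 0) in the 3 libraries of each group, with bars for mean ± SD (n = 3). CD38 stood at 14.6 CPM in DMSO, at 1.81 CPM in MS023 and at 22.4 CPM in GSK591, while NNMT was lower in both inhibitor groups and PARP1 was lower in GSK591 and higher in MS023.

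CD38 (ENSG00000004468, hg19 chr4:15779897-15854853) encodes the NAD glycohydrolase and ADP-ribosyl cyclase best known from the surface of leukocytes. It was counted at 15.01, 15.2 and 13.7 CPM in DMSO libraries 1 to 3, at 22.2, 24.3 and 20.7 CPM in the GSK591 libraries and at 2.28, 1.67 and 1.48 CPM in the MS023 libraries. The 3 groups did not overlap: every GSK591 library was above every DMSO library, and every MS023 library was far below both. The MS023 values rest on 117, 64 and 63 reads, and those of DMSO on 480, 701 and 634.

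The mean level of CD38 was 14.6 ± 0.814 CPM (SD, n = 3) in DMSO, 22.4 ± 1.81 CPM in GSK591 and 1.81 ± 0.420 CPM in MS023. The fitted change under MS023, which chose the gene, was -2.99 ± 0.12, or 7.95-fold lower than in DMSO, and 30 of the 18292 tested genes had a lower value. Against GSK591 the same libraries stood at -3.61 ± 0.11, or 12.2-fold lower. In log2(FPKM + 1) these differences were -1.96 and -2.69. Under GSK591 the level was 1.53-fold higher than in DMSO (log2 change 0.62 ± 0.09, edgeR adjusted p = 2.45e-05). That comparison did not choose the gene but shares its DMSO libraries with the one that did.

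In RNA from whole cultures, fewer cells that express CD38 and less of its RNA per cell cannot be told apart. The summed level of the 10 leukocyte markers ran in the same direction as CD38, while its members did not move as one. The sum was 27.9 to 28.9 CPM in DMSO, 35.2 to 36.1 CPM in GSK591 and 24.2 to 25.5 CPM in MS023. The sum came mostly from CD68 (mean 16.4 CPM), CD14 (7.38 CPM) and ITGAM (3.71 CPM), while defining leukocyte genes were at or near 0, with 6 reads of PTPRC, 1 of CD3E and 0 of MS4A1 over all 9 libraries. Of the 5 markers that could be tested, 2 rose under GSK591 (ITGAM and CD68) and 0 fell. Under MS023 3 fell (CD14, ITGAM and CD68) and MZB1 rose (log2 change 1.14 ± 0.16, edgeR adjusted p = 4.52e-05). Of all tested genes, 62.6% were called under GSK591 and 51.0% under MS023, so such counts are not read as particular to these markers. The part of these markers in the CD38 result was not tested.

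A stretch upstream of CD38 is shown with that of NADSYN1. The pair was picked because both genes were called higher under GSK591 while their promoters differ in CG content. Each line gives 150 bases, from 250 to 101 before the start in the RefSeq promoter table (GRCh38.p14, plus strand, 5′ to 3′), and capitals mark CG dinucleotides.
CD38, chr4:15778078-15778227: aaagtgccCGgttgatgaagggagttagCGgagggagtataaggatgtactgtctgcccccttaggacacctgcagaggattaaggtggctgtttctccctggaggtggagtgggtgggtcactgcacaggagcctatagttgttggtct
NADSYN1, chr11:71452953-71453102: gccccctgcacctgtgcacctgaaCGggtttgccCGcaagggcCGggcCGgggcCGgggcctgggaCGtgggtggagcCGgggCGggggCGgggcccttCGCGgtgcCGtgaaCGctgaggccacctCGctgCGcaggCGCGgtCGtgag

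These stretches hold 2 CG in CD38 and 18 in NADSYN1, a difference for which the pair was picked. Of the 7 genes, 6 were matched in the table, and NNMT was not. Over the 250 bases before the start, CD38 had 3 CG and 52.4% G or C, and 22.9% of the 35114 promoters had fewer CG. QPRT was also poor in CG, with 2 and 1 at its 2 starts, whereas NMNAT1 had 21, PARP1 26, NADSYN1 29 and NAMPT 34, against a median of 11 over all promoters. The 2 windows of QPRT overlap each other. Bases taken after the starts of QPRT and NMNAT1 were not found in an annotated protein-coding transcript of the gene, so these starts are uncertain.

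A few short motifs were looked for on both strands of these 250 bases. The GC box GGGCGG, which itself contains a CG, was found 5 times in NADSYN1, 3 times in NAMPT, 2 times in PARP1 and 1 time in NMNAT1, and 42.6% of all promoters held it. The CCAAT box (CCAAT) was found 1 time each in CD38 and NMNAT1, with 32.0% of promoters holding it. The TATA box TATAAA (10.7% of promoters) and the AP-1 motif TGANTCA (6.57%) were in none of the 6 genes' windows. Such matches describe the letters only. Neither CD38 nor QPRT held the GC box in this window.

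BST1 (ENSG00000109743, hg19 chr4:15704572-15739936) is the closest paralog of CD38, a surface NAD glycohydrolase whose gene ends 39960 bases before that of CD38. It was counted at 8.10, 8.09 and 7.56 CPM in DMSO, at 14.6, 15.5 and 15.6 CPM in GSK591 and at 11.0, 11.8 and 10.5 CPM in MS023. All libraries of both inhibitors were above those of DMSO. BST1 thus rose under GSK591 (log2 change 0.95 ± 0.06, edgeR adjusted p = 9.82e-09) and under MS023 (0.49 ± 0.07, adjusted p = 2.44e-05), the treatment in which CD38 was lowest. In FPKM (fragments scaled by gene length and depth), which can be compared between genes, CD38 stood at 1.19 times BST1 in DMSO, 1.07 times in GSK591 and 0.117 times in MS023 (means of 3 libraries). SARM1, the NAD hydrolase of axon degeneration, rose under GSK591 (0.58 ± 0.08, adjusted p = 1.38e-05) and stood at -0.12 ± 0.08 under MS023 (adjusted p = 0.215).

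NNMT (ENSG00000166741, hg19 chr11:114128508-114184007) encodes nicotinamide N-methyltransferase. Its level was 196, 210.3 and 196 CPM in the DMSO libraries, 156, 149 and 151 CPM in the GSK591 libraries and 50.7, 43.2 and 44.1 CPM in the MS023 libraries. The groups did not overlap, and their order differed from that of CD38, with DMSO highest and GSK591 in between. The mean was 201 ± 8.45 CPM (SD, n = 3) in DMSO, 152 ± 3.81 CPM in GSK591 and 46.0 ± 4.12 CPM in MS023.

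NNMT fell 4.36-fold under MS023 (log2 change -2.12 ± 0.06, edgeR adjusted p = 7.89e-13), and 143 of the 18292 tested genes had a lower change. Under GSK591 it fell 1.32-fold (-0.40 ± 0.05, adjusted p = 1.25e-05). The MS023 libraries were 3.30-fold below the GSK591 libraries (-1.72 ± 0.06, adjusted p = 1.79e-12). NNMT is also known from stromal cells, and the summed level of the 7 fibroblast markers ran the other way. The sum was 20.4 to 22.7 CPM in DMSO, 25.7 to 27.0 CPM in GSK591 and 32.2 to 35.6 CPM in MS023, led by COL1A1 (mean 14.6 CPM), THY1 (8.17 CPM) and COL3A1 (3.05 CPM), with 2 reads of COL1A2 and 1 of DCN over all 9 libraries. Single markers went both ways: of the 4 tested, THY1 and LUM rose and COL1A1 and COL3A1 fell under GSK591, and under MS023 COL1A1 rose (1.10 ± 0.08, adjusted p = 2.14e-08) and LUM fell (-0.56 ± 0.20, adjusted p = 0.0340). Among all tested genes, 62.6% were called under GSK591 and 51.0% under MS023. The part of these markers in the NNMT result was not tested. Of 3 endothelial markers listed, 2 were found, CDH5 and VWF, with 86 and 22 reads in all. CDH5 rose under GSK591 (1.53 ± 0.61, edgeR adjusted p = 0.0397) and MS023 (2.64 ± 0.51, adjusted p = 6.07e-04). Its mean was only 0.0641 CPM in DMSO, 0.195 CPM in GSK591 and 0.417 CPM in MS023, and VWF was too low to test.

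AOX1 (aldehyde oxidase), which oxidises methylated nicotinamide to pyridones after NNMT, showed opposite changes under the inhibitors. It was counted at 3.97, 3.47 and 3.37 CPM in DMSO, at 20.004, 23.5 and 22.7 CPM in GSK591 and at 1.70, 1.93 and 1.55 CPM in MS023, with no overlap between groups. AOX1 rose 6.18-fold under GSK591 (log2 change 2.63 ± 0.09, edgeR adjusted p = 7.98e-12), where NNMT fell. It fell 2.08-fold under MS023 (-1.06 ± 0.12, adjusted p = 4.05e-06), where NNMT fell too. In log2(FPKM + 1) that fall was -0.17 and was not called (limma adjusted p = 0.254), at 0.753 FPKM in DMSO and 0.554 FPKM in MS023.

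NAMPT (ENSG00000105835, hg19 chr7:105888730-105926772) encodes the rate-limiting enzyme of NAD salvage and was the most abundant of the 7 genes. It was counted at 1147, 1276 and 1207 CPM in DMSO, at 1072, 1167 and 1178 CPM in GSK591 and at 988, 955 and 984 CPM in MS023. The MS023 libraries were below all others, whereas those of GSK591 and DMSO overlapped. NAMPT fell 1.24-fold under MS023 (log2 change -0.31 ± 0.04, edgeR adjusted p = 1.74e-05) and was 1.17-fold lower in MS023 than in GSK591 (-0.22 ± 0.04, adjusted p = 1.97e-04).

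Under GSK591 NAMPT stood at -0.09 ± 0.04 and was not called (edgeR adjusted p = 0.0765). It was called lower without DMSO library 1 (-0.11, adjusted p = 0.0238) and without both DMSO library 1 and GSK591 library 3 (-0.13, adjusted p = 0.0150), and its adjusted p ran from 0.00659 to 0.600 over all settings tried. Reads of its copy NAMPTL were few, at 1552 over all libraries, and an antisense transcript overlaps 786 exonic bases of NAMPT. The strand setting of the counting is not given, so reads of that stretch are uncertain.

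NMNAT1 (ENSG00000173614, hg19 chr1:10003485-10045559), the nuclear enzyme that joins NMN to the adenylyl group of ATP, was counted at 5.50, 7.17 and 6.05 CPM in DMSO. Its level was 8.29, 9.10 and 8.55 CPM in GSK591 and 8.43, 7.16 and 7.61 CPM in MS023. All GSK591 libraries were above DMSO, while MS023 library 2 fell just below DMSO library 2. NMNAT1 rose 1.38-fold under GSK591 (log2 change 0.46 ± 0.10, edgeR adjusted p = 7.31e-04) and 1.23-fold under MS023 (0.30 ± 0.10, adjusted p = 0.0168).

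The MS023 call for NMNAT1 was lost without DMSO library 3 (edgeR adjusted p = 0.0609), without MS023 library 1 (adjusted p = 0.0798) and without both DMSO library 1 and GSK591 library 3 (0.25 ± 0.10, adjusted p = 0.0522). The adjusted p of this call ran from 0.00167 to 0.154 over all settings tried. Between the inhibitors it stood at -0.16 ± 0.09 (adjusted p = 0.151). A transcript on the same strand overlaps 436 of its exonic bases. Of its paralogs, NMNAT2, known from neurons, rose from 1.00, 0.802 and 1.02 CPM in DMSO to 3.82, 3.72 and 3.73 CPM in GSK591 (2.002 ± 0.145, adjusted p = 1.95e-08). In MS023 it reached 1.56, 1.38 and 1.69 CPM (0.73 ± 0.16, adjusted p = 0.00161). The mitochondrial enzyme NMNAT3 stood at -0.01 ± 0.15 under GSK591 and 0.21 ± 0.14 under MS023 and was not called (adjusted p = 0.942 and 0.225).

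NADSYN1 (ENSG00000172890, hg19 chr11:71164154-71235153) encodes NAD synthetase, which amidates the last intermediate of the nicotinic acid and tryptophan routes. Its level was 59.3, 56.7 and 62.7 CPM in DMSO, 98.8, 96.2 and 94.0 CPM in GSK591 and 63.1, 62.8 and 60.8 CPM in MS023. The GSK591 libraries stood above all others, and MS023 and DMSO overlapped. NADSYN1 rose 1.62-fold under GSK591 (log2 change 0.69 ± 0.04, edgeR adjusted p = 2.01e-09) and was 1.55-fold lower in MS023 than in GSK591 (-0.63 ± 0.04, adjusted p = 3.71e-09). Under MS023 it stood at 0.06 ± 0.04 (adjusted p = 0.209). NAPRT, which starts the nicotinic acid route, stood at -0.03 ± 0.07 under GSK591 (adjusted p = 0.709) and rose under MS023 (0.24 ± 0.07, adjusted p = 0.00728), a call that log2(FPKM + 1) did not give (0.22, limma adjusted p = 0.101).

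QPRT (ENSG00000103485, hg19 chr16:29674599-29710020) encodes quinolinate phosphoribosyltransferase, the step that brings tryptophan breakdown into NAD synthesis. It was counted at 4.69, 5.98 and 5.60 CPM in DMSO, at 7.58, 6.14 and 6.06 CPM in GSK591 and at 9.17, 7.52 and 8.11 CPM in MS023. MS023 was above DMSO in every library, and GSK591 library 1 lay within the MS023 range. QPRT rose 1.52-fold under MS023 (log2 change 0.60 ± 0.11, edgeR adjusted p = 3.65e-04). In log2(FPKM + 1) this change was 0.35, called with a filter on low FPKM (limma adjusted p = 0.0202) and not without one (adjusted p = 0.0638). A gene on the same strand overlaps 572 of its exonic bases, so its counts are uncertain.

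Under GSK591 QPRT stood at 0.26 ± 0.11 and was not called (edgeR adjusted p = 0.0616). It was called higher without DMSO library 2 (0.35, adjusted p = 0.0287) or GSK591 library 3 (0.34, adjusted p = 0.0376), with adjusted p from 0.0267 to 0.856 over all settings tried, and stood at 0.038 in log2(FPKM + 1). Between the inhibitors it was higher in MS023 (0.34 ± 0.11, adjusted p = 0.0121), a call that was lost without GSK591 library 2 (adjusted p = 0.0594), GSK591 library 3 (0.0693) or MS023 library 1 (0.0629), with adjusted p from 3.32e-04 to 0.0693 over all settings. The mean was 5.42 ± 0.664 CPM (SD, n = 3) in DMSO and 6.59 ± 0.855 CPM in GSK591, and the libraries of these groups did not overlap.

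Upstream of QPRT, KYNU, the kynureninase of tryptophan breakdown, was abundant, at 538, 570.0 and 543 CPM in DMSO. It fell to 452, 458 and 484 CPM in GSK591 (log2 change -0.24 ± 0.04, edgeR adjusted p = 1.65e-04) and to 311, 291 and 287 CPM in MS023 (-0.89 ± 0.04, adjusted p = 5.25e-10). TDO2, a tryptophan dioxygenase, rose under GSK591 (0.96 ± 0.13, adjusted p = 1.31e-05) and stood at 0.04 ± 0.14 under MS023 (adjusted p = 0.822). IDO1, IDO2 and HAAO were too low to test, with 36, 56 and 16 reads over all 9 libraries. Of the 5 tested genes of this route other than QPRT, 1 rose and 1 fell under GSK591, and 0 rose and 2 fell under MS023. Calls covered 62.6% and 51.0% of all tested genes in these comparisons.

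PARP1 (ENSG00000143799, hg19 chr1:226548391-226595780) encodes the main nuclear poly(ADP-ribose) polymerase, which DNA breaks activate. Its level was 238, 237 and 237 CPM in DMSO, 183, 177 and 175 CPM in GSK591 and 263, 261 and 262 CPM in MS023. The spread within groups was small, and none of the groups overlapped. PARP1 fell 1.33-fold under GSK591 (log2 change -0.41 ± 0.03, edgeR adjusted p = 8.68e-08) and rose 1.10-fold under MS023 (0.14 ± 0.03, adjusted p = 0.00318), so that MS023 was 1.47-fold above GSK591 (0.55 ± 0.03, adjusted p = 2.40e-09). PARP2, its partner in DNA repair, fell under GSK591 (-0.32 ± 0.04, adjusted p = 8.33e-06) and stood at -0.09 ± 0.04 under MS023 (adjusted p = 0.0768).

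The order of the 7 genes was read from FPKM, which accounts for gene length. In DMSO, NAMPT stood highest at 399 ± 49.0 FPKM (SD, n = 3), followed by NNMT at 241 ± 25.5, PARP1 at 49.5 ± 0.993, NADSYN1 at 19.6 ± 0.711, CD38 at 5.76 ± 0.352, QPRT at 3.08 ± 0.406 and NMNAT1 at 2.47 ± 0.289. Among neighbours in this order, QPRT and NMNAT1 overlapped in DMSO. In GSK591 NMNAT1 (3.47 ± 0.473 FPKM) and QPRT (3.18 ± 0.253 FPKM) overlapped again and the first 5 places were unchanged, with CD38 at 10.2 ± 1.09 FPKM.

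In MS023 no neighbours in the order overlapped. NNMT, at 46.5 ± 5.76 FPKM, stood below PARP1, at 55.8 ± 1.21 FPKM, and CD38 stood last, at 0.747 ± 0.242 FPKM, below NMNAT1 at 3.15 ± 0.407 FPKM. NAMPT remained first at 309 ± 21.0 FPKM. The ratio of NAMPT to NNMT was 1.60, 1.65 and 1.71 in the DMSO libraries, 1.95, 2.27 and 2.29 in GSK591 and 6.29, 7.08 and 6.64 in MS023. The mRNA levels of the salvage enzyme and the methylating enzyme that share nicotinamide thus stood further apart in ratio in each MS023 library than in any other. Protein was not measured.

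**Figure D2:**
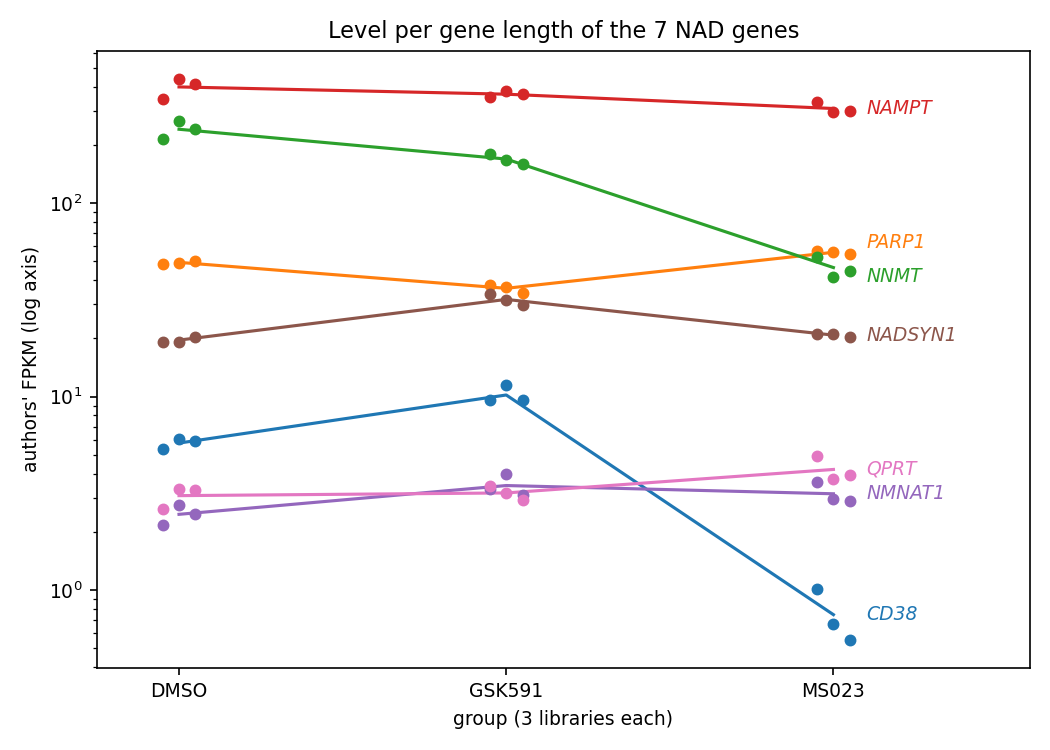
Authors' FPKM (log axis) of the 7 NAD genes in each library, with lines joining the group means (n = 3). NAMPT is highest in all groups, and in MS023 NNMT drops below PARP1 and CD38 drops to the last place, at 0.747 FPKM.

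Beyond the 7 genes, 59 other genes of NAD metabolism and the methyl cycle were listed, and 53 of them were tested. Under GSK591 24 of the 53 rose and 17 fell, with a median log2 change of 0.12 against 0.01 over all tested genes, of which 30.1% rose and 32.4% fell. In limma on log2(FPKM + 1), where 45 of the genes passed a filter, 13 rose and 17 fell. Of all 12953 genes in that setting, 2659 rose and 5173 fell. Under MS023 13 rose and 18 fell, with a median of 0.01, beside 25.1% of all tested genes higher and 25.9% lower, and scaling by total counts turned this split to 16 higher and 14 lower. That scaling gave 5190 higher and 4035 lower of all 18292 genes. Between the inhibitors 13 were higher and 24 lower in MS023, with a median of -0.09, beside 33.6% and 31.7% of all tested genes.

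Of the 3 tested salvage genes other than NAMPT, 1 rose and 2 fell under GSK591, and 0 rose and 2 fell under MS023. Among all tested genes 62.6% and 51.0% were called. NT5E, which encodes the surface nucleotidase CD73, fell from 129.9, 125 and 116 CPM in DMSO to 83.9, 85.5 and 83.4 CPM in GSK591 (log2 change -0.55 ± 0.05, edgeR adjusted p = 3.02e-07). In MS023 it fell to 58.9, 50.3 and 54.3 CPM (-1.18 ± 0.05, adjusted p = 2.24e-10). The nicotinamide riboside kinase NMRK1 rose under GSK591 (0.25 ± 0.08, adjusted p = 0.0136, but -0.0019 in log2(FPKM + 1), limma adjusted p = 0.985) and fell under MS023 (-0.28 ± 0.08, adjusted p = 0.0107). PNP, a purine nucleoside phosphorylase, fell under GSK591 (-0.26 ± 0.04, adjusted p = 1.55e-04), and NMRK2 had 8 reads in all and was not tested.

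Of 16 tested genes of ADP-ribosylation other than PARP1, 12 rose and 3 fell under GSK591, and 6 rose and 5 fell under MS023, where 62.6% and 51.0% of all tested genes were called. In log2(FPKM + 1), 6 of 15 rose and 3 fell under GSK591, and with total counts 7 of 16 rose and 3 fell under MS023. All genes gave 2659 higher and 5173 lower of 12953 in the first setting, and 5190 and 4035 of 18292 in the second. TIPARP, a mono-ADP-ribosyltransferase, rose from 46.7, 48.1 and 47.3 CPM in DMSO to 91.9, 105 and 96.4 CPM in GSK591 (log2 change 1.05 ± 0.05, edgeR adjusted p = 1.07e-10). It reached 67.2, 70.6 and 69.5 CPM in MS023 (0.54 ± 0.05, adjusted p = 2.16e-07). PARP10, another such enzyme, rose under GSK591 (1.16 ± 0.16, adjusted p = 1.45e-05) and MS023 (1.13 ± 0.16, adjusted p = 3.05e-05). PARP3 rose 1.81-fold under GSK591 (0.85 ± 0.08, adjusted p = 3.91e-07) and fell under MS023 (-0.23 ± 0.09, adjusted p = 0.0390), so that MS023 stood 2.12-fold below GSK591 (-1.08 ± 0.08, adjusted p = 2.41e-08). PARP16 fell under GSK591 (-0.26 ± 0.06) and PARP9 under MS023 (-0.20 ± 0.07, adjusted p = 0.0174). With total counts PARP3 and PARP9 were no longer called under MS023 (adjusted p = 0.0921 and 0.0505).

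Of the 7 sirtuins, the NAD-dependent deacylases, 3 rose and 3 fell under GSK591, and 1 rose and 3 fell under MS023. The shares called over all tested genes were 62.6% and 51.0%. SIRT1 fell under both inhibitors (log2 change -0.46 ± 0.03 under GSK591, edgeR adjusted p = 2.27e-08, and -0.43 ± 0.03 under MS023, adjusted p = 8.51e-08), and so did SIRT5 (-0.41 ± 0.06 and -0.43 ± 0.06). SIRT2 rose under both (0.43 ± 0.05 and 0.27 ± 0.05). SIRT7 rose under GSK591 (0.67 ± 0.06, adjusted p = 4.44e-07) and stood at 0.07 ± 0.07 under MS023 (adjusted p = 0.428).

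Of 7 genes of NADP formation, NAD transport and NAD hydrolysis by Nudix enzymes, 2 rose and 2 fell under GSK591, and 1 rose and 4 fell under MS023 (2 and 2 with total counts). Beside them, 62.6% and 51.0% of all tested genes were called. With total counts 5190 of all 18292 genes rose and 4035 fell under MS023. NADK, the cytosolic NAD kinase, rose under MS023 (log2 change 0.20 ± 0.04, edgeR adjusted p = 5.38e-04), where NUDT12 (-0.46 ± 0.07, adjusted p = 3.35e-05) and NUDT13 (-0.33 ± 0.12, adjusted p = 0.0391) fell. NUDT13 was not called with total counts (adjusted p = 0.0580). NNT, the mitochondrial transhydrogenase, rose under GSK591 (0.27 ± 0.04, adjusted p = 1.92e-05), where the mitochondrial NAD carrier SLC25A51 (-0.29 ± 0.07) and the mitochondrial NAD kinase NADK2 (-0.17 ± 0.05) fell. NNT was not called in log2(FPKM + 1) (limma adjusted p = 0.0685), nor NADK2 with total counts (adjusted p = 0.0880).

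Of 9 tested genes of the methyl cycle, which makes and clears the methyl donor that NNMT uses, 1 rose and 6 fell under GSK591, and 2 rose and 1 fell under MS023. Of all tested genes, 30.1% rose and 32.4% fell under GSK591, and 25.1% rose and 25.9% fell under MS023. MAT2A, the synthetase of S-adenosylmethionine, rose under GSK591 (log2 change 0.33 ± 0.04, edgeR adjusted p = 9.10e-06) and MS023 (0.24 ± 0.04, adjusted p = 3.08e-04). Methionine synthase, MTR, fell under both (-0.45 ± 0.04 and -0.57 ± 0.04). AHCYL1, a relative of the hydrolase of S-adenosylhomocysteine, fell under GSK591 (-0.37 ± 0.04) and was higher in MS023 than in GSK591 (0.37 ± 0.04).

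**Figure D3:**
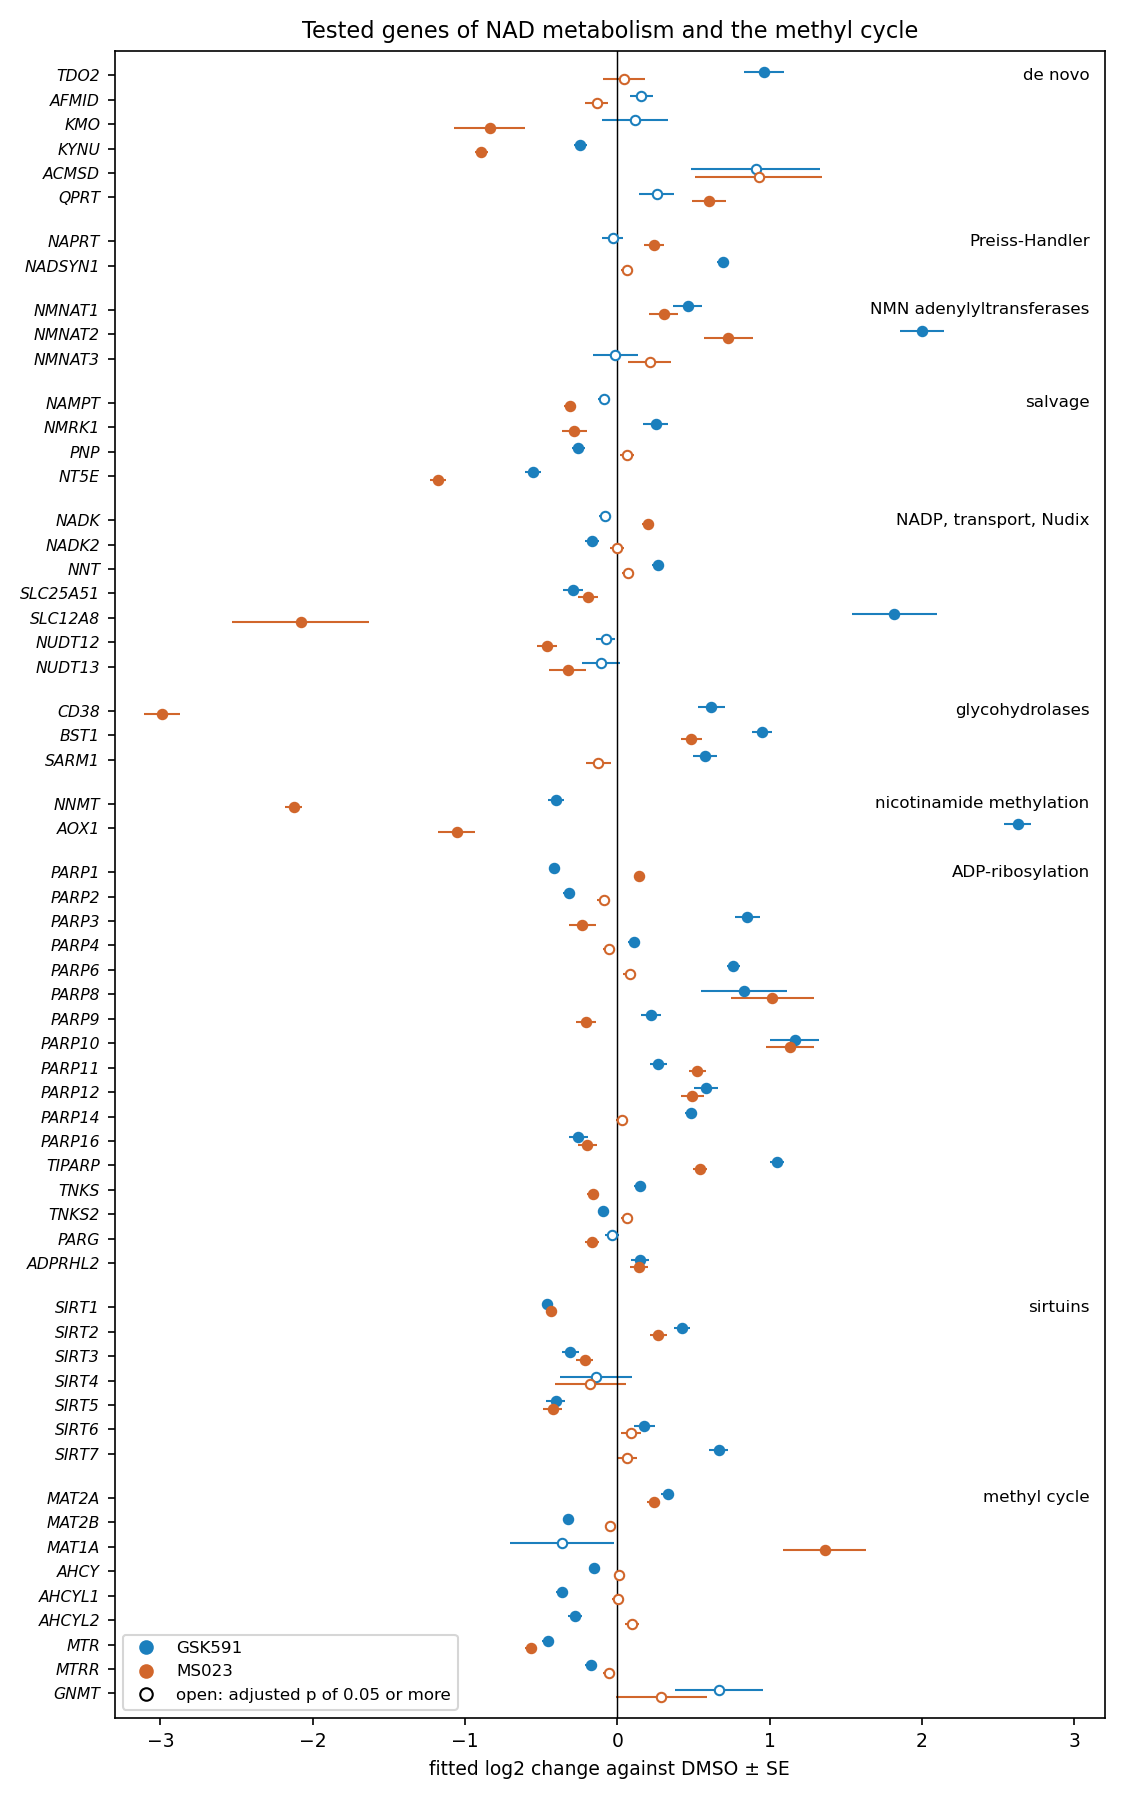
Fitted log2 change ± SE against DMSO (horizontal axis) of the tested genes of each list and the 7 chosen genes, in GSK591 and MS023 (n = 3 each), with open points for an adjusted p of 0.05 or more. The MS023 value of CD38 chose the gene, so its filled point is a description and not a test. CD38 and NNMT lie far to the left in MS023, whereas AOX1 lies far to the right in GSK591 and to the left in MS023. SLC12A8 of the transport list lies at 1.82 in GSK591 and -2.08 in MS023, on 53 reads in DMSO, 181 in GSK591 and 13 in MS023.

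Genes whose pattern over the 9 libraries was most like that of CD38 were ranked by the root mean square difference of log2 CPM centred on each gene's mean, among 13206 candidates. The closest were PIEZO2, a mechanosensitive channel (difference 0.296 on the log2 scale), complement C3 (0.318), BMPER (0.327), the ion channel ASIC2 (0.350) and FRMPD4 (0.364), where the median over candidates was 1.62. Their levels in DMSO, GSK591 and MS023 were 5.28 ± 0.628, 8.86 ± 0.720 and 0.970 ± 0.0553 CPM (SD, n = 3) for PIEZO2. For C3 they were 65.3 ± 1.88, 84.9 ± 1.56 and 10.6 ± 0.639 CPM. As in CD38, the groups of both genes did not overlap, with GSK591 highest and MS023 lowest.

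For NNMT the closest were SNAP25, a synaptic vesicle fusion protein (difference 0.110 on the log2 scale), the prolyl hydroxylase P4HA3 (0.132), CACNG4 (0.149), the lipid droplet protein CIDEC (0.164) and transglutaminase TGM2 (0.166), beside a median of 0.955. SNAP25 stood at 110.3 ± 1.92 CPM (SD, n = 3) in DMSO, 98.5 ± 1.94 CPM in GSK591 and 26.9 ± 2.74 CPM in MS023. P4HA3 stood at 31.9 ± 1.60, 21.3 ± 0.300 and 7.85 ± 0.167 CPM. All 10 genes were chosen for their likeness over these same libraries, so their levels are a description.

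**Figure D4:**
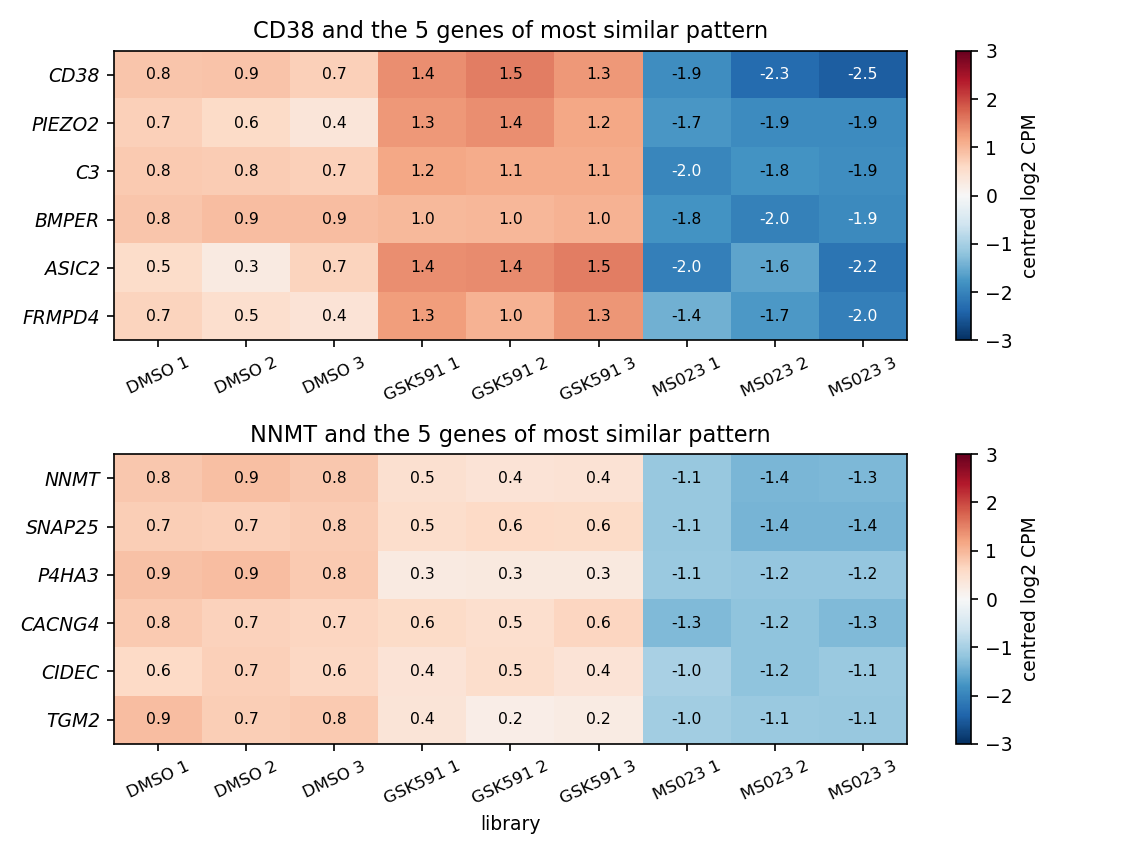
Log2 CPM centred on each gene's mean (colour and printed value) in the 9 libraries, for CD38 and for NNMT with the 5 genes closest to each by root mean square difference. The CD38 set is highest in GSK591 and lowest in MS023, and the NNMT set is highest in DMSO and lowest in MS023.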

How the data were processed

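RNA of 9 A549 libraries was depleted of ribosomal RNA, primed with random hexamers and sequenced in pairs, per the labels. The submitters' processing notes name cutadapt, STAR, featureCounts, DESeq2 and the build hg19. Versions, annotation and strand setting of these steps were not given in the sources used here. The authors deposited raw read counts per gene, whole numbers that sum to 31398075 to 51244525 per library. They also deposited FPKM tables in the layout of Cufflinks, in which 108 identifiers, NADSYN1 among them, are on more than 1 line and were summed. FPKM was used for levels set between genes.

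The counts went into edgeR 4.0.16 (R 4.3.3): filterByExpr (minimum count 10, minimum total 15), TMM, and a quasi-likelihood fit of group over all 9 libraries, with Benjamini-Hochberg adjustment over 18292 genes and a threshold of 0.05. All p-values are two-sided, and the script was tested on simulated data. Each SE was taken as the absolute log2 change over the square root of F. Symbols came from the FPKM tables for 48523 identifiers and from a gene name table for 10. Reads are not independent molecules, and at few reads, as for CD38 in MS023, counting error limits precision.

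The members, the lists and the tests were chosen with earlier results of these data known. Named genes were the 7 members, the paralogs BST1, SARM1, NMNAT2, NMNAT3 and PARP2, and, from the largest changes each way in each list and comparison, at most 2 called genes that averaged 1 CPM or more and whose groups did not overlap, some of which are left to the figure. The 5 genes most like CD38 and NNMT, and the 3 highest markers of each list, were added. Of the genes read too low to test, IDO1, IDO2, HAAO and NMRK2 are given by their reads. SLC12A8 averaged under 1 CPM in both comparisons with DMSO and is named only for its place in a figure. Exonic overlaps were read from GENCODE v29, a later build than that of the files, and positions are from the FPKM tables. Alternatives were RLE size factors, total counts, no filter, a filter of 1 CPM in 3 libraries, DESeq2 1.42.0, a replicate block, only the 6 libraries compared, each library left out, DMSO 1 and GSK591 3 left out, an adjusted p of 0.01, and limma 3.58.1 on log2(FPKM + 1) or log2(FPKM + 0.1) with a filter of FPKM 1 in 3 libraries and, for the first, without one.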

Additional observations from a re-analysis of the deposited data

How the results depend on the processing

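No log2 change of the 7 genes changed sign under the 21 alternatives tried for each. CD38 in MS023 moved to -1.96 against DMSO and -2.69 against GSK591 in log2(FPKM + 1), with or without a filter, where the pseudocount shrinks low values. In log2(FPKM + 1) without a filter, 3 genes other than CD38 were called against DMSO and 3 against GSK591, and 19 pathway genes (12 higher, 7 lower) against DMSO. Of all 27043 genes in that setting, 2813 were higher and 2631 lower in MS023 than in DMSO, and 5280 and 3843 than in GSK591. QPRT then stood at 0.35 against DMSO and 0.31 against GSK591, NAMPT at -0.25 against GSK591 and NMNAT1 at 0.26 against DMSO, all no longer called. QPRT under GSK591 was called with total counts (0.32), no filter (0.25) and the CPM filter (0.30), and so was NAMPT without a filter (-0.094) and without DMSO 1 and GSK591 3 (-0.13). The MS023 call for NMNAT1 was lost without those libraries (0.25), in log2(FPKM + 1) (0.26), in log2(FPKM + 0.1) (0.34) and, with an unchanged value of 0.30, at an adjusted p of 0.01, where QPRT between the inhibitors (0.34) was lost too. Leaving out 1 library gave QPRT under GSK591 0.17 to 0.35, NAMPT under GSK591 -0.11 to -0.028, NMNAT1 under MS023 0.23 to 0.43 and QPRT between the inhibitors 0.26 to 0.44. It gave 5 to 6 members called under GSK591, 4 to 5 under MS023 and 4 to 5 between the inhibitors, and 37 to 42, 26 to 31 and 35 to 37 pathway genes. Over all 18611 to 18955 genes then tested, 5111 to 5690 rose and 5392 to 6016 fell under GSK591. Under MS023 3921 to 4844 rose and 4061 to 4757 fell. Between the inhibitors 5717 to 6312 were higher in MS023 and 5468 to 6052 lower. Among same-numbered libraries of different groups, 2 of 9 correlations of deviations were over 0.1 (r from -0.43 to 0.26), so the numbers were not taken to pair them. With a replicate block 5 members were called in each comparison, as without it, and 39, 30 and 37 pathway genes, and no member's call changed. Over all 18292 genes the block gave 5362 higher and 5783 lower under GSK591, 4382 and 4473 under MS023, and 6026 and 5616 between the inhibitors. In FPKM the median change of all genes shifted to -0.10 under GSK591 and 0.10 between the inhibitors with a pseudocount of 1.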
